A study of Drosophila melanogaster with 6 samples.

Results

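The odorant-binding protein genes of Drosophila melanogaster were examined in RNA-seq libraries of adult males infected by injection with the Gram-positive bacterium M. luteus and taken at 12 h. Members were all genes in the deposited table whose symbol in the dm6 annotation starts with Obp and a digit, plus lush, and no gene with a Pbprp name was present. This gave 52 genes of the 17558 in the table, and all 52 that the annotation holds were present. Control flies carried Gal80ts; Tub-Gal4/P{CaryP}attP40, a ubiquitous tubulin driver under a temperature-sensitive repressor over an empty landing site. Overexpressing flies, Gal80ts; Tub> NANPI, drove the long noncoding RNA CR33942 (NANPI in the strain label) through that driver. Each group had 3 libraries, no uninfected flies were sampled, and strain and overexpression differed together between the groups. Nothing in the sources used here gives the age in days, the number of flies behind a library or whether libraries came from separate pools. A p-value thus reflects the spread of 3 libraries a group, and that spread may be technical.

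Odorant-binding proteins are small secreted carriers of hydrophobic molecules. In the antenna, support cells release them into the fluid around olfactory neurons, where they bind odorants and pheromones near the receptors. Other members of the family are made in taste bristles, fat body, glia and the male reproductive tract, and several are transferred to females in seminal fluid.

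The recovered depth was between 17029398 and 19793483 reads per library. CR33942 stood at 18.7, 19.5 and 19.0 FPKM (fragments per kilobase of exon, scaled to library depth) in the control libraries and at 553, 589 and 563 FPKM in the overexpressing libraries, a 29.8-fold difference in the direction of the labels. Male markers (12 genes: testis transcripts, roX RNAs and Y-linked genes) summed to between 1821 and 2041 FPKM in every library, and 13 eggshell and female germline genes to between 6.09 and 13.8 FPKM. The 13.8 FPKM was in overexpressing replicate 2, and no other library exceeded 8.18 FPKM. Overexpressing replicate 2 stood nearer to the controls than its group mates did for several members, and results that rest on it are given with and without it.

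The family spanned a wide range of levels. Of the 52 genes 34 reached 1 FPKM in at least 3 of the 6 libraries and were tested, 14 had reads but stayed below that filter, and 4 were listed at 0 throughout. By mean over the 6 libraries 9 members lay above 100 FPKM, 10 between 10 and 100 FPKM, and the remaining 15 tested members below 10 FPKM. The 5 most abundant members held between 74.3% and 77.2% of the family's summed level in every library. Those 5 were Obp56g, Obp51a, Obp99c, Obp56d and Obp44a, with means of 1193, 625, 494, 472 and 470.1 FPKM. The summed level of the family was 4460 ± 154 FPKM in controls and 4165 ± 225 FPKM in overexpressing libraries (SD, n = 3 each), with single libraries between 3945 and 4629 FPKM and groups that overlapped. In every library this was between 0.574% and 0.653% of all FPKM.

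**Figure D1:**
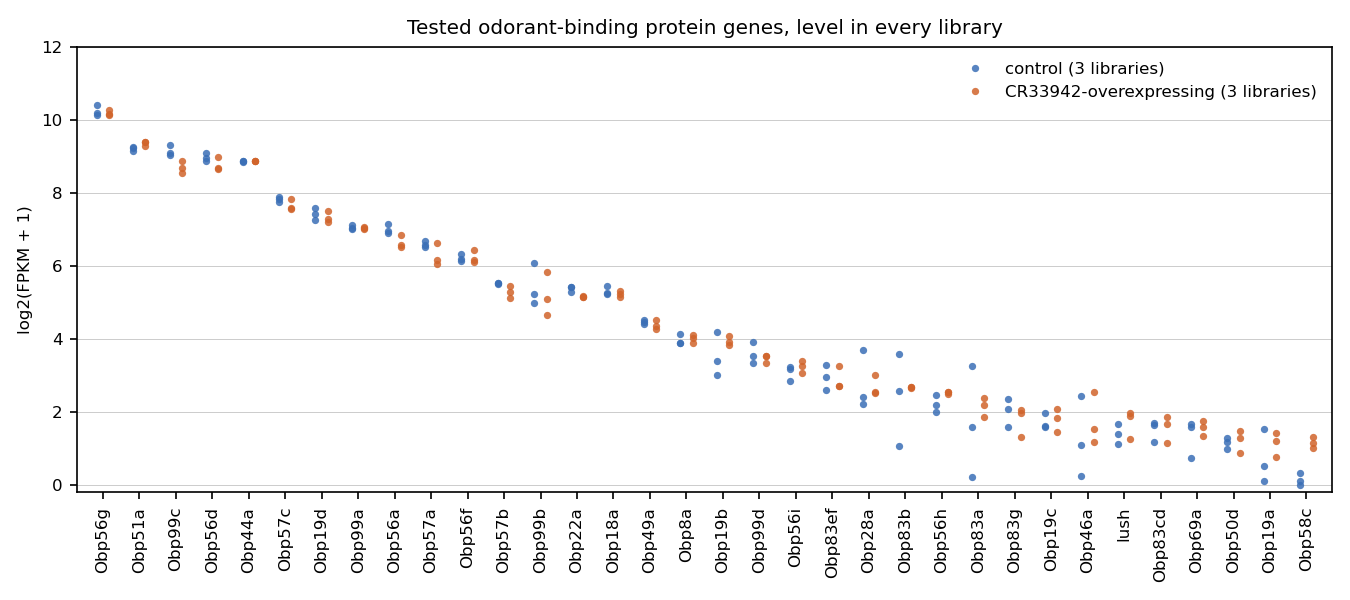
Level of each tested odorant-binding protein gene on the log2(FPKM + 1) axis, ordered by mean, with 1 point per library and the groups in different colours. The abundant members, from Obp56g to Obp44a, have tight points, whereas Obp28a, Obp83b, Obp83a, Obp46a and Obp19a have control points spread far apart.

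Group differences were tested with limma on log2(FPKM + 1) over all 12326 genes that passed the filter, and 274 genes (2.22%) changed, at a Benjamini-Hochberg adjusted p under 0.05. Among the 34 tested members 1 rose, Obp58c, and 0 fell, where 0.844% of all tested genes rose and 1.38% fell. Obp58c passed the filter only through the overexpressing libraries, which fixed its direction and lack of overlap in advance. With voom on recovered reads 2 members were called, Obp58c higher and Obp99c lower, against 3.73% of all tested genes. At an unadjusted p under 0.05 there were 7 members, 3 higher and 4 lower, against 15.7% of all tested genes. The groups did not overlap for 7 of the 34 members, against 20.7% of all tested genes. Higher were 3 (Obp51a, Obp56h and Obp58c; background 9.06%) and lower were 4 (Obp99c, Obp56a, Obp57b and Obp22a; background 11.7%). The members' median log2 change was -0.0009, beside 0.0023 for all tested genes, with 17 members above 0 and 17 below. The family's shares lay near the background, so the counts are no result about the family as a whole.

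Obp58c was the member that rose. It belongs to the Plus-C subfamily, whose proteins carry extra conserved cysteines beyond the classic pattern, and lies on chromosome 2R at 22705872 to 22706678, minus strand, with no exon base shared with another annotated gene. It stood at 0.0752, 0 and 0.248 FPKM in the control libraries and at 1.50, 1.01 and 1.21 FPKM in the overexpressing libraries. All overexpressing libraries lay above all control libraries. In reads this was 1, 0 and 3 against 21, 14 and 15, a ratio of 12.0 after scaling for depth (95% exact binomial interval 4.41 to 45.8, counting error only). On the log2(FPKM + 1) scale it rose by 1.02 ± 0.16 (SE), with an adjusted p of 0.0220 from limma and 0.0141 from voom. Obp58c passed the filter only through the overexpressing libraries, since 0 control libraries reached 1 FPKM, so a member kept in this way had to differ. The limma call was lost with a pseudocount of 0.1 (adjusted p = 0.0539) and with the replicate number fitted as a block (0.0632). By limma it was lost also without control replicate 1 (0.0850) or 2 (0.0869) and without overexpressing replicate 1 (0.0895) or 3 (0.0779), and it held without control replicate 3 and without overexpressing replicate 2.

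The neighbours of Obp58c had few reads or showed no call. Obp58b, 232 bases away, had 5, 2 and 4 reads in controls and 7, 15 and 4 in overexpressing libraries, a ratio of 2.27 with an interval of 1.08 to 5.09 that covers counting error only. The groups of Obp58b overlapped. Obp58d, 255 bases away on the other side, had 0 reads in every control library and 3, 2 and 0 in the overexpressing libraries. Of the 13 annotated genes within 20 kb, 5 passed the filter, and their lowest limma adjusted p was 0.898.

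Among antennal members the libraries of the control group differed from one another far more than the groups did. Obp83a and Obp83b, also known as OS-F and OS-E, are made in the pheromone-sensing and neighbouring hairs of the antenna and lie 931 bases apart on 3R. Obp83a stood at 0.158, 8.64 and 2.03 FPKM in controls and at 4.20, 3.54 and 2.67 FPKM in overexpressing libraries. In reads this was 3, 163 and 35 against 84, 70 and 47. Control replicate 1 was thus the lowest and control replicate 2 the highest of all 6 libraries, with the overexpressing libraries between them. Obp83b repeated that order at both ends, at 1.08, 11.0 and 4.97 FPKM in controls and 5.42, 5.47 and 5.30 FPKM in overexpressing libraries. Its SD was 4.99 FPKM in controls and 0.0905 FPKM in overexpressing libraries.

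The same 2 control libraries bounded other antennal genes. Obp28a, a carrier of the basiconic hairs, which sense food and plant odours, stood at 3.62, 12.1 and 4.27 FPKM in controls and at 7.03, 4.77 and 4.86 FPKM in overexpressing libraries. Obp19a stood at 0.0808, 1.87 and 0.444 FPKM against 1.69, 1.32 and 0.696 FPKM. Both had their lowest value in control replicate 1 and their highest in control replicate 2. Obp69a, a carrier linked to social responses to pheromone, also was lowest in control replicate 1, at 0.666, 2.20 and 1.99 FPKM against 1.99, 2.37 and 1.54 FPKM. Obp59a, which acts in humidity sensing, had 0, 15 and 2 reads against 5, 12 and 9. lush, the carrier needed for responses to the male pheromone cis-vaccenyl acetate, varied less, at 1.17, 2.19 and 1.63 FPKM against 2.92, 1.37 and 2.69 FPKM. Obp84a had between 1 and 4 reads in each library.

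Summed over the 8 members grouped as antennal, the reads were 85, 513 and 180 in controls and 334, 266 and 227 in overexpressing libraries. Obp56d and Obp19d, also known from antennae, are far more abundant and were placed in other groups. Both were highest in control replicate 2, but lowest in overexpressing replicate 3 and not in control replicate 1. Limma and voom each called 0 of the 6 antennal members that were tested, and 0 had an unadjusted limma p under 0.05. The shares of all tested genes were 2.22%, 3.73% and 15.7%. In limma the 6 members had adjusted p between 0.580 and 0.956 and log2 changes between -0.08 and 0.45. The sign of several of these members depended on which control library was kept. Without control replicate 1 the log2 change of Obp83a was -0.29, of Obp83b -0.40 and of Obp28a -0.36, whereas without control replicate 2 they were 1.24, 0.86 and 0.39. The control libraries differed over 2-fold, highest against lowest, for 10 of the 34 tested members, a count made after the values were seen, where 3.60% of all tested genes did. The 10 include Obp58c, whose lowest control value was 0. Among genes with a mean of 1 to 20 FPKM these were 8 of 17 members, against 4.64% of all tested genes at those levels. In the overexpressing group 7 of 34 members differed over 2-fold, against 4.19% of all tested genes. The levels were matched on FPKM and not on reads, and some of these members had few reads. Obp19a had 1, 23 and 5 reads in controls, and Obp46a had 13, 2 and 46. The part of counting error in these ranges was not tested.

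Antennal genes outside the family were read beside these values. a10, an antennal member of the chemosensory protein family, had 1, 111 and 27 reads in controls and 65, 49 and 43 in overexpressing libraries. Os-C, another secreted antennal protein gene, had 14, 110 and 33 reads against 77, 55 and 30, and a5 had 0, 24 and 2 reads against 18, 8 and 14. All had their lowest count in control replicate 1 and their highest in control replicate 2. Orco, the co-receptor of the odorant receptors, had 19, 56 and 26 reads against 52, 25 and 40, with the same libraries at the ends and a narrower range. Over all 61 odorant receptor genes, 5 of them at 0, the summed level ranged from 16.8 to 19.7 FPKM in controls and from 17.4 to 19.6 FPKM in overexpressing libraries. Jhedup, an antennal esterase gene, had 42, 98 and 63 reads against 84, 75 and 51, also with those libraries at the ends. Snmp1 did not follow the order, with 301, 320 and 231 reads against 249, 335 and 326. Nor did the ionotropic co-receptor genes Ir25a, with 54, 57 and 66 reads against 70, 60 and 50, and Ir76b, with 29, 37 and 33 reads against 34, 31 and 13. Or67d and Ir8a had at most 8 reads in any library. In libraries of many tissues, fewer cells of a type and less RNA per cell cannot be told apart, and the part of antennal content in these values was not tested.

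**Figure D2:**
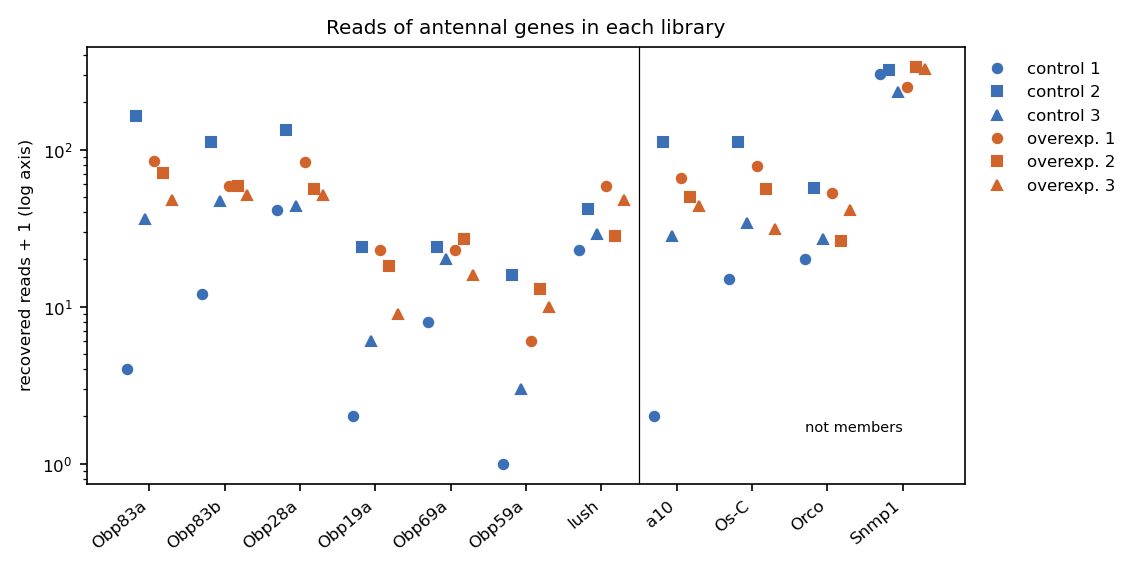
Recovered reads plus 1 on a log axis for the antennal members Obp83a to lush and, right of the line, for 4 other genes, with 1 symbol per library. Control replicate 1 is lowest for Obp83a (3 reads), Obp83b, Obp28a and a10 (1 read) and control replicate 2 highest (163 and 111 reads for Obp83a and a10), while Snmp1 stays between 231 and 335 reads.

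Several members of the Obp56 and Obp57 clusters on 2R are made in taste organs. Among the tested genes of these clusters Obp56a, Obp56d, Obp57a, Obp57b and Obp57c gave their lowest values in 2 of the 3 overexpressing libraries. Obp56h did not have this pattern, nor did Obp56f, Obp56g and Obp56i, given below with the male reproductive set. The pattern was named after the values were seen, and its share of all tested genes was not counted. Obp56a stood at 141, 119 and 123 FPKM in controls and at 93.6, 115 and 90.0 FPKM in overexpressing libraries. Its groups did not overlap, with overexpressing replicate 2 just under the lowest control. Obp57a stood at 102, 94.7 and 90.7 FPKM in controls and at 65.0, 98.9 and 70.6 FPKM in overexpressing libraries, so that overexpressing replicate 2 lay inside the control range. Obp57c stood at 217, 229 and 234 FPKM against 187, 227 and 190.3 FPKM. Obp56d, a carrier of antennal and taste hairs, stood at 473, 549.9 and 495 FPKM against 409, 504 and 400.4 FPKM. In both, replicate 2 again lay inside the control range and replicates 1 and 3 below it. Obp57b stood at 45.3, 45.0 and 44.5 FPKM against 34.0, 42.6 and 38.2 FPKM, with groups that did not overlap.

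None of these 5 members passed the threshold: the log2 changes were -0.36 for Obp56a, -0.31 for Obp57a, -0.23 for Obp57b, -0.21 for Obp56d and -0.17 for Obp57c, with limma adjusted p of 0.150, 0.359, 0.224, 0.367 and 0.366. Without overexpressing replicate 2, where 3.72% of all tested genes were called, Obp56a (log2 change -0.47, adjusted p = 0.0250) and Obp57a (-0.49, adjusted p = 0.0135) passed, and Obp57b, Obp57c and Obp56d did not (0.0540, 0.0549 and 0.0725). That library lay nearest to the controls in these 5 members, so leaving it out had to widen their differences. With any other library left out, limma adjusted p lay between 0.238 and 0.372 for Obp56a and between 0.418 and 0.618 for Obp57a. Summed over all 10 members of both clusters outside the male reproductive set, the level was 982, 1041 and 990.3 FPKM in controls and 794, 993 and 795 FPKM in overexpressing libraries. Obp56h, whose knockdown in males is known to alter mating behaviour, went the other way, at 4.47, 3.52 and 2.98 FPKM against 4.82, 4.62 and 4.81 FPKM. Its groups did not overlap, and it did not pass (log2 change 0.32 ± 0.12 SE, limma adjusted p = 0.260).

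**Figure D3:**
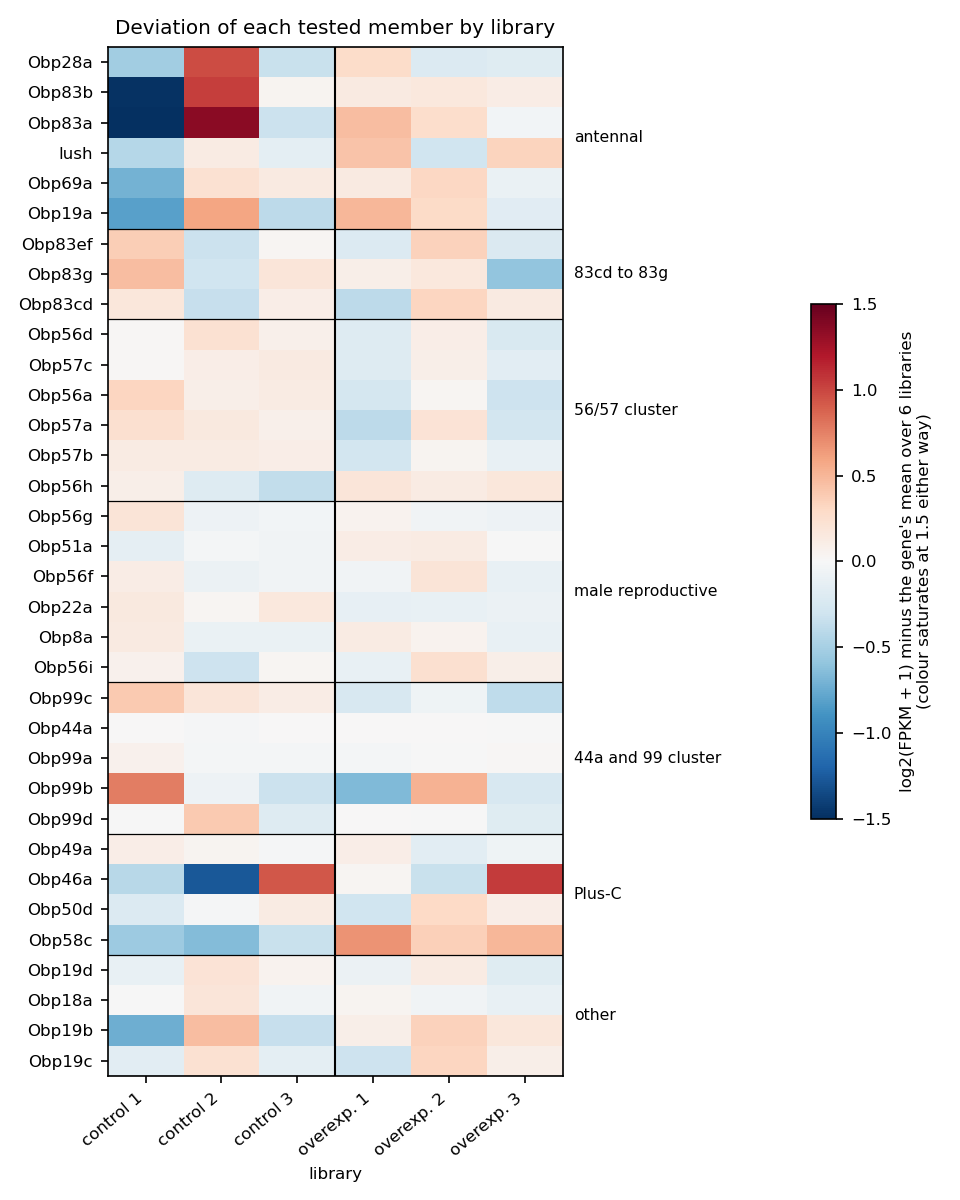
Deviation of each tested member from its own mean over the 6 libraries on the log2(FPKM + 1) scale, with members in rows by role and libraries in columns. Antennal members are lowest in control replicate 1. Obp56a, Obp56d, Obp57a, Obp57b and Obp57c are lower in overexpressing replicates 1 and 3 than in replicate 2, Obp56h is not, and Obp44a is close to 0 throughout.

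Obp99c gave the lowest log2 change of any tested member. It lies on 3R at 29685736 to 29689311, minus strand, near Obp99a, Obp99b and Obp99d, members of the Minus-C subfamily, which lack a pair of the conserved cysteines. Obp99c stood at 638, 549.9 and 527 FPKM in controls and at 411, 467 and 373 FPKM in overexpressing libraries, a ratio of means of 0.729. On reads the ratio was 0.730, with an interval of 0.716 to 0.745 that covers counting error only. Every overexpressing library lay below every control library. The log2 change was -0.46 ± 0.10 (SE), and the limma adjusted p of 0.0738 missed the threshold. It passed by voom on the recovered reads (adjusted p = 0.0145), where 2.47% of all tested genes were called lower. It passed also by limma without overexpressing replicate 2 (log2 change -0.54, adjusted p = 0.0250). That library lay nearest to the controls for Obp99c, so leaving it out had to widen the difference. In every other setting Obp99c missed the threshold. The limma adjusted p was 0.113 with the replicate number fitted as a block and 0.121 without the trend. With any other library left out the lowest was 0.125, without control replicate 3.

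The neighbours of Obp99c did not share its gap between the groups. Obp99a was level, at 138, 129 and 129.5 FPKM against 129, 132 and 134 FPKM (log2 change -0.01 ± 0.05 SE). Obp99d stood at 10.5, 14.1 and 9.13 FPKM against 10.6, 10.5 and 9.17 FPKM. Obp99b, a gene of the male fat body under control of the sex-determination pathway, stood at 67.1, 36.9 and 30.9 FPKM against 24.2, 56.3 and 32.9 FPKM. Control replicate 1 and overexpressing replicate 2 were thus the high libraries of Obp99b, and the ranges overlapped widely (log2 change -0.25 ± 0.35 SE). Obp44a, a Minus-C member made by glia in the fly brain, was the steadiest abundant member, at 473, 463 and 472 FPKM in controls and 473, 472 and 467 FPKM in overexpressing libraries, a log2 change of 0.00 ± 0.05 (SE).

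Fat body markers were read beside Obp99c and Obp99b. Of 13 listed markers 12 matched the table and 11 were tested, with 1 called higher (Adh) and 1 called lower (fat-spondin), and a median log2 change of -0.16. Limma called 2.22% of all tested genes. Voom called 1 marker higher and 2 lower, against 3.73% of all tested genes. Without Bbd, an immune-induced gene that made up most of the list's level, the markers summed to 862, 742 and 677 FPKM in controls and 559, 643 and 565 FPKM in overexpressing libraries. Adh, the alcohol dehydrogenase gene, rose from 0.596 ± 0.119 to 4.28 ± 2.40 FPKM (SD, n = 3 each; limma adjusted p = 0.0295). It passed the filter only through the overexpressing libraries, so it had to differ. fat-spondin, a secreted fat body protein gene, fell from 34.8 ± 1.06 to 24.8 ± 0.730 FPKM (limma adjusted p = 0.00668). Of 4 tested sex-regulated fat body genes 2 fell, Yp3, a yolk protein gene, from 32.4 ± 1.04 to 9.04 ± 1.49 FPKM and sxe2 from 40.4 ± 0.822 to 26.8 ± 4.14 FPKM (limma adjusted p = 0.000441 and 0.0369). Voom also called 2 of these 4, both lower. The part of the fat body in the values of Obp99c was not tested.

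Obp56g and Obp51a, the most abundant members of the family, belong to the male reproductive tract. The tested members of that group had means from 8.01 to 1193 FPKM, and limma called 0 of these 6, against 2.22% of all tested genes. Obp56g, made in the ejaculatory bulb and needed for the mating plug, stood at 1358, 1125 and 1159 FPKM in controls and at 1238, 1146 and 1133 FPKM in overexpressing libraries (log2 change -0.05 ± 0.08 SE). Obp51a, a seminal fluid gene, stood at 567, 609.6 and 599.9 FPKM against 674, 678 and 623 FPKM. All overexpressing libraries of Obp51a lay above all controls, by a ratio of means of 1.11, and the limma adjusted p was 0.269. Obp22a, also a seminal fluid gene, lay the other way with groups that did not overlap, at 41.6, 38.2 and 41.9 FPKM against 34.3, 34.6 and 35.4 FPKM (log2 change -0.22 ± 0.06 SE, limma adjusted p = 0.114). Obp56f stood at 73.4 ± 5.52 and 74.7 ± 8.88 FPKM, Obp8a at 14.7 ± 1.51 and 15.1 ± 1.32 FPKM, and Obp56i at 7.57 ± 1.18 and 8.46 ± 1.13 FPKM in control and overexpressing libraries (SD, n = 3 each).

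These organs' own markers did not pass either. Limma and voom each called 0 of 28 tested accessory gland genes, and 4 had an unadjusted limma p under 0.05. Of all tested genes limma called 2.22% and voom 3.73%, and 15.7% had an unadjusted limma p under 0.05. The summed level of accessory gland genes ranged from 8390 to 9503 FPKM in controls and from 7792 to 8992 FPKM in overexpressing libraries. The most abundant were Sfp87B, at 1701 ± 148 and 1590.3 ± 191 FPKM, and Sfp60F, at 1138 ± 128 and 1015 ± 187 FPKM. Both tools also called 0 of 5 tested ejaculatory duct and bulb genes, of which 1 had an unadjusted limma p under 0.05. Beside the shares of all tested genes, these counts are no result about the organs. EbpII, an ejaculatory bulb protein gene, stood at 1245 ± 161 and 1124 ± 199 FPKM, and Dup99B, a ductus peptide gene, at 401 ± 21.1 and 438 ± 26.7 FPKM.

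The 6 X-linked members were all tested. Limma and voom each called 0, and 0 had an unadjusted limma p under 0.05, where limma called 4.88% of the 1887 tested X-linked genes. Obp19a, Obp19b, Obp19c and Obp19d lie in a row between 20415744 and 20420979 with gaps of 211, 108 and 648 bases. Their mean levels were 1.02, 12.9, 2.42 and 166 FPKM, so that neighbours differed by up to 68.8-fold. Obp19d, known from antennae and taste organs, stood at 153, 191 and 172 FPKM in controls and 155, 181 and 146 FPKM in overexpressing libraries. Obp19b, a carrier in taste bristles, stood at 7.01, 17.4 and 9.47 FPKM against 13.2, 16.0 and 14.0 FPKM, with control replicates 1 and 2 again at the ends. Obp18a was level, at 38.8 ± 3.48 and 36.5 ± 2.06 FPKM (SD, n = 3 each).

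Several other members at low levels had groups that overlapped. Obp46a, a Plus-C gene, stood at 1.13, 0.175 and 4.40 FPKM in controls and 1.90, 1.25 and 4.87 FPKM in overexpressing libraries, high in replicate 3 of each group. Obp49a, a Plus-C carrier that acts in the bitter suppression of sweet taste, stood at 21.2 ± 0.927 and 19.9 ± 1.99 FPKM. Obp83cd, Obp83ef and Obp83g, made in taste organs of the pharynx, summed to 15.1, 8.34 and 12.0 FPKM against 9.68, 14.3 and 9.18 FPKM, with control replicate 1 the highest and control replicate 2 the lowest library.

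**Figure D4:**
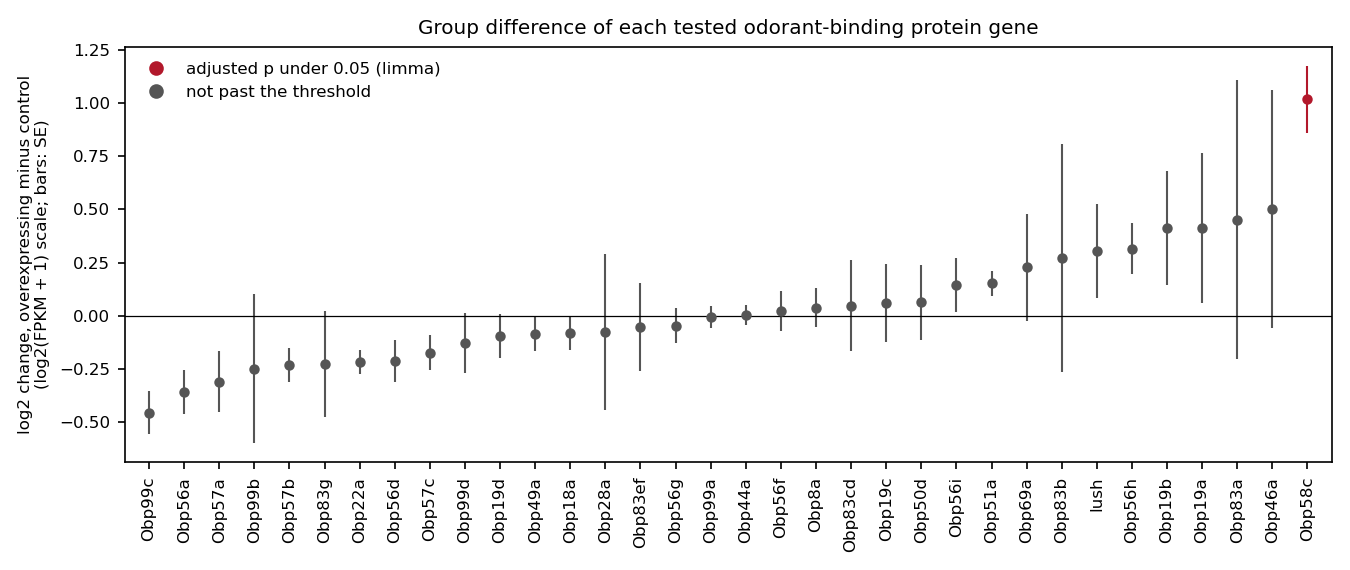
Log2 change of each tested member, overexpressing minus control, on the log2(FPKM + 1) scale, ordered by size, with SE bars from limma. Obp58c, at 1.02, is the member past the threshold, Obp99c lies at the low end at -0.46, and the antennal members Obp83a and Obp83b and the Plus-C member Obp46a carry the widest bars.

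The Plus-C members were mostly below the filter, with 4 of 13 tested. The 14 members with reads below the filter had between 0 and 31 reads per group. Among them the highest mean was 0.698 FPKM (Obp50a), and the highest single value 1.09 FPKM (Obp58b in overexpressing replicate 2). Obp57e, a carrier of leg taste bristles, had 4, 4 and 3 reads in controls and 0, 7 and 0 in overexpressing libraries.

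The 4 members listed at 0 in every library were Obp47b, Obp50b, Obp50c and Obp57d, and in all 4 the exons were covered to 100% by exons of another annotated gene. Obp50b and Obp50c have the same annotated exons on 2R at 14371186 to 14373006, plus strand. Obp57d lies within exons of Cpr57A on the same strand, and Obp47b within exons of CG7741 on the opposite strand. Over all protein-coding genes in the table, 347 of 371 whose exons were fully covered by other genes (93.5%) were listed at 0 throughout, against 218 of 9167 (2.38%) that shared no exon base. Where the cover lay on the opposite strand alone it was 63 of 69 (91.3%). A value of 0 for these members therefore gives no measure of their RNA. Obp56e, Obp84a and Obp93a, covered to 84.4%, 81.2% and 83.2% by genes on the opposite strand, were below the filter as well. Among the tested members the widest overlap was 19.1%, for Obp44a with Pabp2 on the opposite strand.

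**Figure D5:**
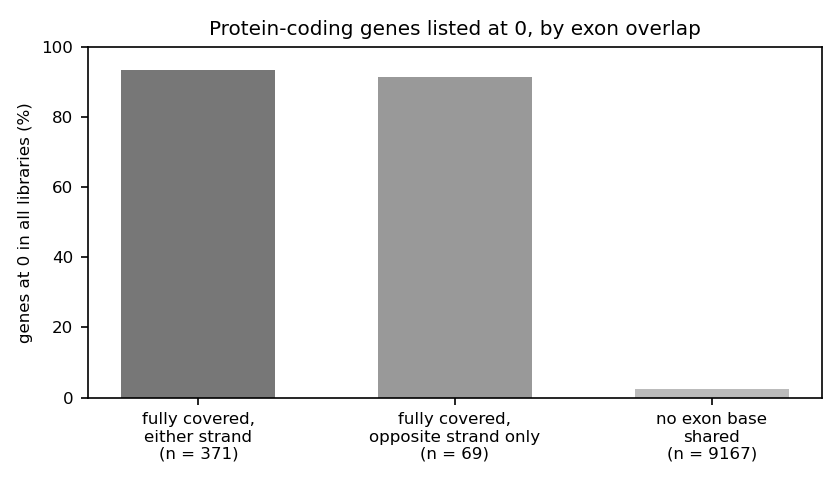
Share of protein-coding genes listed at 0 FPKM in all 6 libraries, by how far their exons are covered by exons of other annotated genes, with the number of genes under each bar. The bars stand at 93.5%, 91.3% and 2.38%, and the odorant-binding protein genes at 0 fall in the covered classes.

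Other chemosensory and carrier families gave few calls. Limma and voom each called 0 of the 6 odorant receptor, 5 ionotropic receptor and 2 gustatory receptor genes that passed the filter, and 0 of these had an unadjusted limma p under 0.05. Of all tested genes limma called 2.22% and voom 3.73%, and 15.7% had an unadjusted limma p under 0.05. Beside these shares, counts in such short lists are no result about the families. The most abundant receptors of each kind were Or59c (2.98 ± 0.226 and 2.80 ± 0.448 FPKM, control then overexpressing; SD, n = 3 each), Ir62a (3.12 ± 0.266 and 3.48 ± 0.956 FPKM) and Gr98a (1.55 ± 0.445 and 1.17 ± 0.264 FPKM). The small chemosensory proteins, a family of carriers apart from the odorant-binding proteins, had 0 of 4 called by either tool and 1 with an unadjusted limma p under 0.05. EbpIII, of the ejaculatory bulb, stood at 1761 ± 136 and 1550.2 ± 65.3 FPKM, and Phk-3 at 41.5 ± 8.61 and 46.7 ± 5.34 FPKM. CheA and CheB genes had 0 of 8 called by either tool and 1 with an unadjusted limma p under 0.05, and CheA75a stood at 11.0 ± 3.27 and 15.8 ± 1.31 FPKM.

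Genes that support or clear odorants in the antenna had 0 of 8 called by limma, 1 called higher by voom and 2 with an unadjusted limma p under 0.05. Est-6, a secreted esterase gene of antenna and ejaculatory duct, stood at 266 ± 8.30 and 288 ± 42.3 FPKM. Of 13 tested takeout and juvenile hormone binding protein genes, a family of secreted lipid carriers, limma called 2, both lower, and 6 had an unadjusted p under 0.05, against 2.22% and 15.7% of all tested genes. Voom called 2 lower and 1 higher, against 3.73% of all tested genes. Jhbp4 fell from 10.9, 7.34 and 7.63 FPKM to 0.518, 0.143 and 0.107 FPKM (limma adjusted p = 0.000441). It passed the filter only through the control libraries, so it had to differ. Jhbp13 fell from 596, 657 and 622 FPKM to 422, 439 and 430.3 FPKM (limma adjusted p = 0.00439). The Npc2 genes, of a family of sterol carriers, had 0 of 6 called by either tool and 2 with an unadjusted limma p under 0.05. Npc2g stood at 485, 459 and 467 FPKM in controls and 340.4, 436 and 321 FPKM in overexpressing libraries, with overexpressing replicate 2 nearest to the controls, as for Obp56a. Lipocalins had 0 of 3 called by either tool and 0 with an unadjusted limma p under 0.05, with NLaz at 70.8 ± 2.23 and 76.4 ± 2.78 FPKM. Eye genes, read as a check on head tissue, had 0 of 12 called by either tool and 4 with an unadjusted limma p under 0.05, against 15.7% of all tested genes. Their summed level did not overlap between groups, at 3261, 3337 and 3289 FPKM in controls and 3825, 3431 and 3423 FPKM in overexpressing libraries. ninaE, the main rhodopsin gene, stood at 1574 ± 29.7 and 1688 ± 109 FPKM. The part of head tissue in these values was not tested.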

How the data were processed

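The authors deposited 1 table of FPKM per gene, with a column for each library. Alignment used HISAT2 2.0.5 and counting featureCounts 1.5.0-p3 (per the labels' protocols), on build dm6 (per the submitters' processing notes). Neither the step from counts to FPKM nor the use of strand is stated in the sources used here. Of 17558 gene identifiers 17252 had a symbol in the Ensembl annotation of dm6, which also gave coordinates.

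FPKM times exon length, scaled per library, gave whole reads (tolerance 0.01 of a read) for 15276 of 15918 genes with a value above 0 (96.0%), among them 46 of 48 such members. For 641 other genes a length was solved. These reads were used for voom and for read ratios.

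limma 3.58.1 (R 4.3.3; lmFit, eBayes with trend) was run on log2(FPKM + 1) for genes at 1 FPKM or more in at least 3 of 6 libraries, with Benjamini-Hochberg adjustment over all of them, two-sided, at 0.05. On this scale changes of low genes are understated. An exact permutation test of 3 against 3 libraries cannot give a p below 0.1. The fit was also run on simulated libraries. These held no shifts shared by many genes of a library, so that run is no measure of the calls given here.

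Members, lists and tests were chosen with earlier results of these data known. Roles are textbook knowledge. The rule named members that were called, did not overlap between groups, were among the 10 most abundant or were X-linked. Other members, and the antennal genes outside the family given by reads, were named after their values were seen. Of companion lists the called genes or the 1 or 2 most abundant are named.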

Additional observations from a re-analysis of the deposited data

How the results depend on the processing

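Over 441 alternative values of the 34 members' log2 changes, 431 kept the direction of any call and their side of the threshold, 6 lost a call (all Obp58c), 4 gained one (Obp99c by voom and, with Obp56a and Obp57a, without overexpressing replicate 2) and 0 reversed a call; 30 changed sign without a call. The count of members called was 1, and it was 0 with a pseudocount of 0.1, 0 with a filter on mean FPKM, which drops Obp58c by construction, and 2 by voom. It ranged from 0 to 4 when each library was left out in turn. Over all genes the count was 274, with 460 by voom and a range from 72, without control replicate 2, to 459, without overexpressing replicate 2. Calls in the companion lists numbered 6 and ranged from 4 to 12 when libraries were left out. The cause of these shifts was not tested. CR33942 passed in every setting. Same-numbered libraries did not deviate together (correlations of deviations -0.05, -0.18 and 0.03, and from -0.12 to 0.17 for the other pairs). These values gave no sign that the numbers pair the libraries, but 3 such pairs cannot exclude it. With the replicate number as a block 0 members and 110 genes were called. The 14 members with reads below the filter had at most 31 reads per group, and no group difference was tested for them.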
